A study of Homo sapiens with 6 samples.

Results

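The genes described are 10 enzymes of the Golgi that trim mannose from N-glycans or open their antennae. They are the mannosidase genes MAN1A1, MAN1A2 and MAN2A2 and the N-acetylglucosaminyltransferase genes MGAT1, MGAT2, MGAT3, MGAT4A, MGAT4B, MGAT5 and MGAT5B. They were chosen by gene symbol, with earlier results of these data known. All 10 had exactly 1 probe set among the 1259 probe sets of a glycogene array. The arrays were hybridised with RNA from HCT116, a human colorectal cancer line with microsatellite instability, which by the sample titles carried wild-type ACVR2, a type II activin receptor gene, under doxycycline control. The source labels list TGFBR2 and AIM2 as inducible genes too, so the identity of the transgene rests on the titles. There were 3 arrays of cells given doxycycline and activin A and 3 arrays of cells given activin A without doxycycline. All 6 arrays came from activin A-treated cells carrying the transgene, so the drug and the receptor it is meant to induce cannot be told apart. Time and dose are not given in the labels, nor whether replicates came from separate cultures, so p-values measure only the spread between these arrays, which may be technical.

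N-glycans reach the Golgi as trees of mannose residues. Class I mannosidases (MAN1A1, MAN1A2) trim the outer mannoses, MGAT1 then adds the first N-acetylglucosamine (GlcNAc), and MAN2A2, a class II enzyme, removes further mannoses so that MGAT2 can start the opposite antenna. MGAT4A, MGAT4B and MGAT5 add further antennae, whereas MGAT3 adds the bisecting GlcNAc that hinders further branching. MGAT5-type branches are known from colorectal and other carcinomas, where they carry extended chains that galectins bind.

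Values are RMA log2 signals, each difference is the value with doxycycline minus that without, and the group test is limma's moderated test with Benjamini-Hochberg adjustment over all 1259 probe sets. A probe set's level depends on its own probes, so levels were compared between arrays for 1 gene and never between genes. All 10 mean levels lay above 6.88, the lower quartile of probe set means over the table, which does not show signal over background. Array medians ran from 7.61 to 7.65. Replicate 3 without doxycycline stood apart from the other 5 arrays: its correlations with them across probe sets were 0.982 to 0.991, against 0.995 to 0.999 among those 5. The titles name ACVR2, and ACVR2A is taken here as that gene. It read 8.15, 8.02 and 8.08 with doxycycline, against 8.25, 8.07 and 8.70 without. The difference was -0.26 (limma, adjusted p = 0.710), and -0.08 without replicate 3 of the cells lacking doxycycline. Whether the ACVR2A probes would register the transgene is not known, so the arrays are named by label. Of 14 colon epithelium markers 3 were measured (MUC1, MUC13 and LGALS4), with MUC13 under the lower quartile, so the cell type also rests on the labels.

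Sequences upstream of the start site are shown for the 2 genes at the ends of the range of differences, MAN1A1 and MGAT5B. Each run is the 250 bases before the RefSeq start (GRCh38.p14), on the gene's own strand: chr6:119349762-119350011, minus strand, for MAN1A1, and chr17:76872397-76872646, plus strand, for MGAT5B. Capitals mark matches on either strand to CAGAC, the core of SMAD-binding elements, or to GGGCGG, the GC box.
MAN1A1: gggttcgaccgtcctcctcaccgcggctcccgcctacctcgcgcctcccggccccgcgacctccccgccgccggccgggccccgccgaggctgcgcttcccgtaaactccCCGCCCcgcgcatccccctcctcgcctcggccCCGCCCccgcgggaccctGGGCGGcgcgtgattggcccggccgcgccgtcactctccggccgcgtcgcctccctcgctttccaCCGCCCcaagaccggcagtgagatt
MGAT5B: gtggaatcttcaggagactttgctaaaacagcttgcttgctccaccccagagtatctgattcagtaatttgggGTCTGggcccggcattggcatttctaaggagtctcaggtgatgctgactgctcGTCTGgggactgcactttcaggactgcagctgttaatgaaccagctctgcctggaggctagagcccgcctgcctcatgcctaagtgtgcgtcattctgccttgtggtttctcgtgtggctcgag
The MAN1A1 window held 4 GC boxes, no CAGAC, 40 CpG dinucleotides and 78.4% G or C. That of MGAT5B held 2 CAGAC matches, no GC box, 6 CpG dinucleotides and 53.6% G or C. Over all 35116 windows of the RefSeq table, 38% held CAGAC and 42.6% held GGGCGG, and the medians were 58% G or C and 11 CpG dinucleotides. TATAAA, the TATA box, was found in 0 of the 17 windows of the 7 members that had one (MAN1A1, MAN2A2, MGAT1, MGAT2, MGAT4B, MGAT5 and MGAT5B), against 10.7% of all windows, while 8 of the 17 held CAGAC and 9 held GGGCGG. These matches are letters in a window and were not measured as binding sites. MGAT1 and MAN2A2 supplied most of the 17 windows, so the counts are not over separate genes.

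None of the 10 genes differed between the groups beyond the spread of the replicates. At an adjusted p under 0.05 (limma), 0 of 10 members and 0 of 1259 probe sets (0%) passed. At an unadjusted p under 0.05, 0 of 10 members passed, against 98 probe sets (7.78%) of the table. The members' adjusted p-values ran from 0.682 to 0.964. With doxycycline 7 of 10 members had lower values, against 54.6% of all probe sets, and 3 had higher values, against 45.4%. Without replicate 3 of the cells lacking doxycycline the count of lower values was also 7 of 10, against 61.8% of all probe sets. These were not all the same genes, since MAN1A2 turned to higher and MGAT4B to lower values. The median difference was -0.08 for the members and -0.01 for all probe sets. In 0 of 10 members did the groups lie fully apart, against 15.8% of all probe sets.

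**Figure D1:**
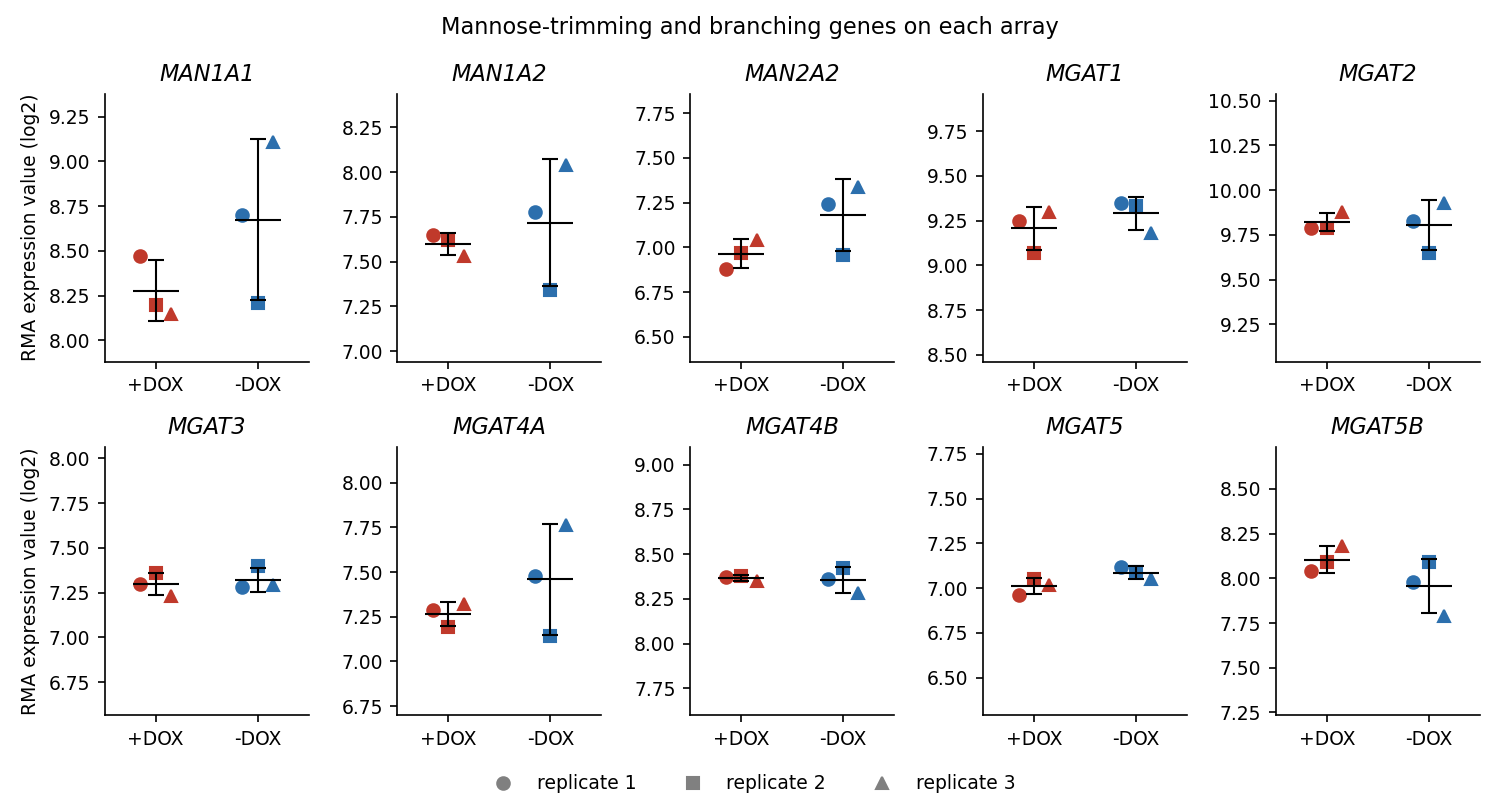
RMA log2 value (vertical axis, the same span in every panel) of each of the 10 genes on the 3 arrays with doxycycline (red, left) and the 3 without (blue, right). Symbols mark the replicate number, the horizontal line the group mean and the bars the SD. In every panel the groups overlap, and the widest spreads are those of MAN1A1, MAN1A2 and MGAT4A without doxycycline.

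The 3 Golgi mannosidases all had lower means with doxycycline, and none passed the test. MAN1A1, which encodes Golgi mannosidase IA, read 8.47, 8.20 and 8.15 on replicates 1, 2 and 3 with doxycycline, against 8.70, 8.21 and 9.11 without. Replicate 2 without doxycycline thus lay inside the range of the doxycycline arrays, while the remaining 2 lay above it. The means were 8.28 ± 0.17 with doxycycline and 8.68 ± 0.45 without (SD, n = 3 each), a difference of -0.40 (SE 0.24; limma, adjusted p = 0.692). The ratio with doxycycline over without was 0.759, with a 95% confidence interval from 0.504 to 1.14. The exact two-sided permutation p was 0.2, where 3 arrays against 3 can give no less than 0.1. The difference was -0.18 without replicate 3 of the cells lacking doxycycline and -0.63 without their replicate 2.

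MAN1A2, its close relative (mannosidase IB), read 7.65, 7.62 and 7.53 with doxycycline, against 7.78, 7.34 and 8.04 without. All 3 doxycycline arrays fell between replicates 2 and 1 of the cells without the drug. The difference was -0.12 (SE 0.18; limma, adjusted p = 0.831). It turned to 0.04 without replicate 3 and was -0.31 without replicate 2 of the cells lacking doxycycline.

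MAN2A2, encoding mannosidase IIx, had the smallest unadjusted p among the members, 0.0994 in limma. Its values were 6.88, 6.97 and 7.04 with doxycycline, against 7.24, 6.96 and 7.34 without. As for MAN1A1, replicate 2 without doxycycline lay inside the doxycycline range and the other two arrays of its group lay above. The difference was -0.22 (SE 0.11; limma, adjusted p = 0.682), and -0.13 without replicate 3 and -0.33 without replicate 2 of that group. The lower direction of all 3 mannosidases held when arrays were centred on their medians, which shifts every difference alike, or quantile normalized again. It did not hold without replicate 3 of the cells lacking doxycycline, where 2 were lower and 1, MAN1A2, was higher.

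Of the 13 further trimming and branching genes listed, 3 were measured, all 3 with lower values with doxycycline and 0 past the threshold (limma). MAN2A1 encodes the other Golgi mannosidase II. It read 7.13, 7.12 and 7.09 with doxycycline, against 7.23, 7.01 and 7.98 without. Only replicate 3 without doxycycline stood high among these 6 arrays, and the difference of -0.29 (SE 0.25; limma, adjusted p = 0.730) was -0.01 without it. Also in this list, MAN1C1, another class I Golgi mannosidase, lay between 6.40 and 6.48 on all 6 arrays with a difference of -0.0017, at a level under the lower quartile. MAN1B1, the class I mannosidase of early trimming, differed by -0.12 (SE 0.10; limma, adjusted p = 0.730).

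The 7 MGAT genes were divided, with 4 lower and 3 higher means with doxycycline and a median difference of -0.03. MGAT1, which opens hybrid and complex glycans, read 9.25, 9.07 and 9.30 with doxycycline, against 9.35, 9.33 and 9.18 without. Replicate 3 was the lowest of the arrays without doxycycline here, and it fell inside the doxycycline range. The difference was -0.08 (SE 0.08; limma, adjusted p = 0.733). It was -0.14 without that array and -0.01 without replicate 2 of the doxycycline cells. MGAT2, which starts the second arm, ranged from 9.79 to 9.88 with doxycycline, against 9.65 to 9.93 without, and differed by 0.02 (95% confidence interval -0.18 to 0.21).

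MGAT4A, an antenna-adding enzyme, was the transferase gene with the lowest difference. It read 7.29, 7.19 and 7.32 with doxycycline, against 7.48, 7.14 and 7.76 without. Replicate 2 without doxycycline was the lowest of all 6 arrays and replicate 3 the highest, so every doxycycline value lay inside the range of the other group. The difference was -0.20 (SE 0.16; limma, adjusted p = 0.730), -0.05 without replicate 3 and -0.36 without replicate 2 of the cells lacking doxycycline. MGAT4B, which makes the same linkage, ranged from 8.35 to 8.38 with doxycycline, against 8.28 to 8.42 without. Its difference was 0.01 (95% confidence interval -0.10 to 0.13), and -0.03 without replicate 3 of the cells lacking doxycycline.

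MGAT5, the branching enzyme studied most in carcinomas, read 6.96, 7.05 and 7.02 with doxycycline, against 7.12, 7.09 and 7.05 without. The groups nearly parted: the top array with doxycycline and the lowest without it both read 7.05. The difference was -0.08 (SE 0.04; limma, adjusted p = 0.692), with a 95% confidence interval from -0.18 to 0.03. Leaving out replicate 3 of the cells without doxycycline gave -0.10 and separate groups. The same omission separated MGAT1, so that 2 of 10 members then lay fully below, against 16% of all probe sets.

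MGAT5B, a relative of MGAT5 known mainly from brain and from O-mannose glycans, was the member with the highest difference. It read 8.04, 8.09 and 8.18 with doxycycline, against 7.98, 8.09 and 7.79 without. Replicate 3 without doxycycline was the lowest array, opposite to its place for MAN1A1 and MGAT4A. The difference was 0.15 (SE 0.09; limma, adjusted p = 0.692), and 0.07 without that array. MGAT3, the bisecting enzyme, ranged from 7.23 to 7.36 with doxycycline, against 7.28 to 7.40 without, and differed by -0.03 (95% confidence interval -0.16 to 0.11).

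**Figure D2:**
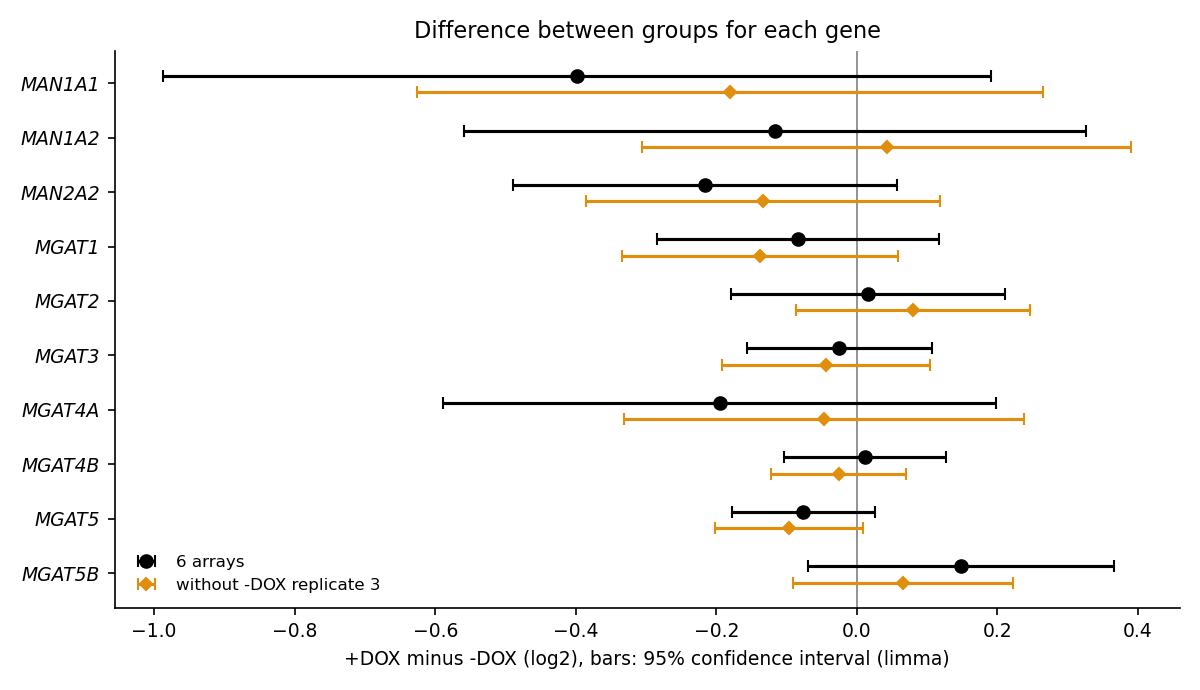
Difference with minus without doxycycline (horizontal axis, log2) for each gene, with all 6 arrays (black circles) and without replicate 3 of the cells lacking doxycycline (orange diamonds); bars are 95% confidence intervals from limma. All 20 intervals include 0, and they are widest for MAN1A1, at 0.59 to either side with 6 arrays.

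The intervals give the precision of each single difference. They are not adjusted for the number of probe sets, so passing the adjusted threshold took a larger difference than leaving 0 outside the interval. To either side of the difference, the 95% confidence interval reached from 0.10 for MGAT5 to 0.59 for MAN1A1, with a median of 0.21 over the members and 0.15 over all probe sets. For MAN1A1 the interval spanned -0.99 to 0.19, and for MAN1A2 -0.56 to 0.33. A difference as large as the -0.40 of MAN1A1 was therefore not detectable for either gene, and the high p-values do not show that the groups were alike. For MGAT3, MGAT4B and MGAT5 the intervals stayed within 0.18 of 0. Signal over background is unknown, and for a probe set near background a narrow interval would not bound a change of the gene.

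Arrays without doxycycline spread more widely over the table as a whole, and the members were near that share. The SD was larger without doxycycline in 8 of 10 members, all but MGAT1 and MGAT5, against 77.1% of all probe sets. The median SD of the members was 0.07 with doxycycline and 0.15 without, against 0.05 and 0.09 over all probe sets. For MAN1A2 the SD was 0.06 with doxycycline and 0.35 without, a ratio of 5.85, and for MGAT4A 0.07 and 0.31, a ratio of 4.52.

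Within the group without doxycycline, the arrays fell in 1 order for 5 genes. Replicate 2 was lowest, replicate 1 between and replicate 3 highest for MAN1A1, MAN1A2, MAN2A2, MGAT2 and MGAT4A, an order found in 21.5% of all probe sets. The opposite order held for MGAT4B and MGAT5B and for 31.6% of all probe sets. Replicate 3 was the highest or lowest of all 6 arrays for 7 of 10 members, against 61.6% of the table. Within this group the mannosidase genes and MGAT4A were thus highest on the array that stood apart and lowest on replicate 2. For MAN1A1 and MAN2A2 that replicate 2 lay inside the doxycycline range. The part of each array in the differences is given by the values without it. Without replicate 2 of the cells lacking doxycycline, MAN1A1, MAN1A2, MAN2A2, MGAT4A and MGAT5B had unadjusted p-values from 0.00483 to 0.0413 (limma, 2 arrays against 3), against 20.5% of all probe sets under 0.05. Adjusted over the table, 0 of the 10 passed, with 0.112 for MAN2A2 the smallest.

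**Figure D3:**
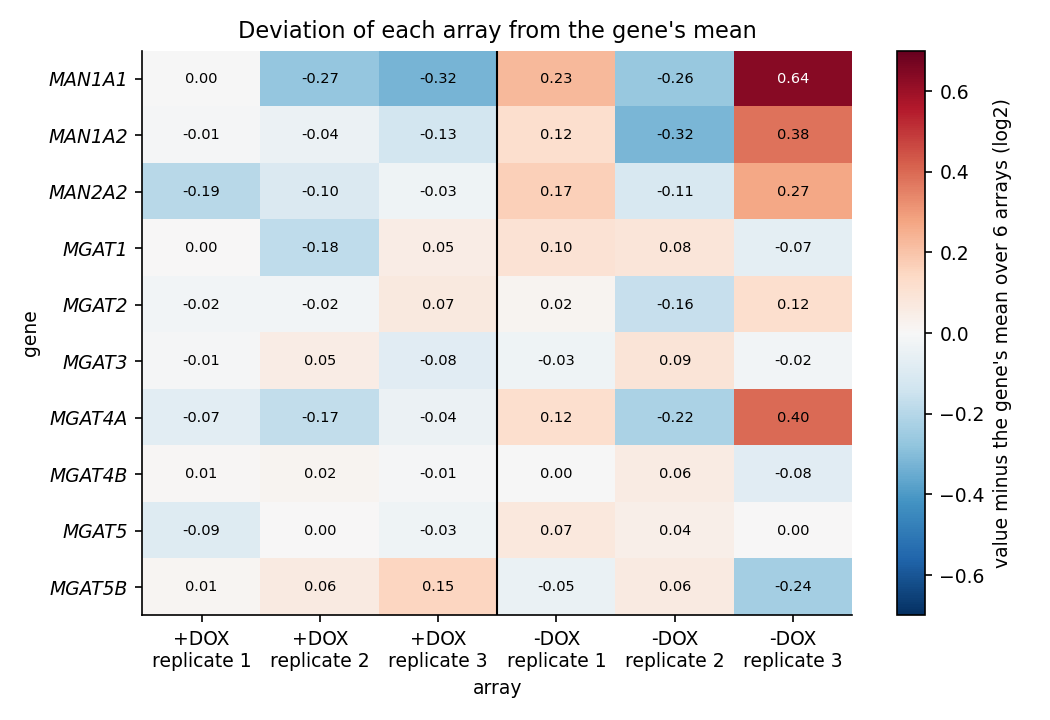
Value of each gene (rows) on each array (columns, doxycycline left of the line) minus the gene's mean over the 6 arrays, in log2 units; red is above and blue below the mean. The column of replicate 3 without doxycycline runs from 0.64 for MAN1A1 to -0.24 for MGAT5B, and replicate 2 of the same group is at -0.32 for MAN1A2 and -0.22 for MGAT4A.

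Averaged by class, the mannosidase mean varied between arrays without doxycycline and the MGAT mean did not vary to that extent. These means average 3 and 7 probe sets, so their spreads are not like for like. The mean over the 3 mannosidase probe sets was 7.67, 7.60 and 7.58 with doxycycline, against 7.91, 7.50 and 8.16 without. The group means were 7.61 ± 0.05 with doxycycline and 7.86 ± 0.33 without (SD, n = 3 each), and 1 of the 3 arrays without doxycycline lay below all of those with it. The mean over the 7 MGAT probe sets was 8.14, 8.13 and 8.18 with doxycycline, against 8.20, 8.16 and 8.18 without, with group means of 8.15 ± 0.03 and 8.18 ± 0.02 (SD, n = 3 each). These class means were compared between arrays only, and they have no p because the members were chosen with results known. The steadiness of the MGAT mean hides opposite deviations, since MGAT4A stood 0.40 above and MGAT5B 0.24 below its own mean on replicate 3 without doxycycline. The mannosidase mean minus the MGAT mean, a quantity in which a shift of a whole array cancels, was -0.48, -0.53 and -0.61 with doxycycline, against -0.29, -0.66 and -0.02 without.

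**Figure D4:**
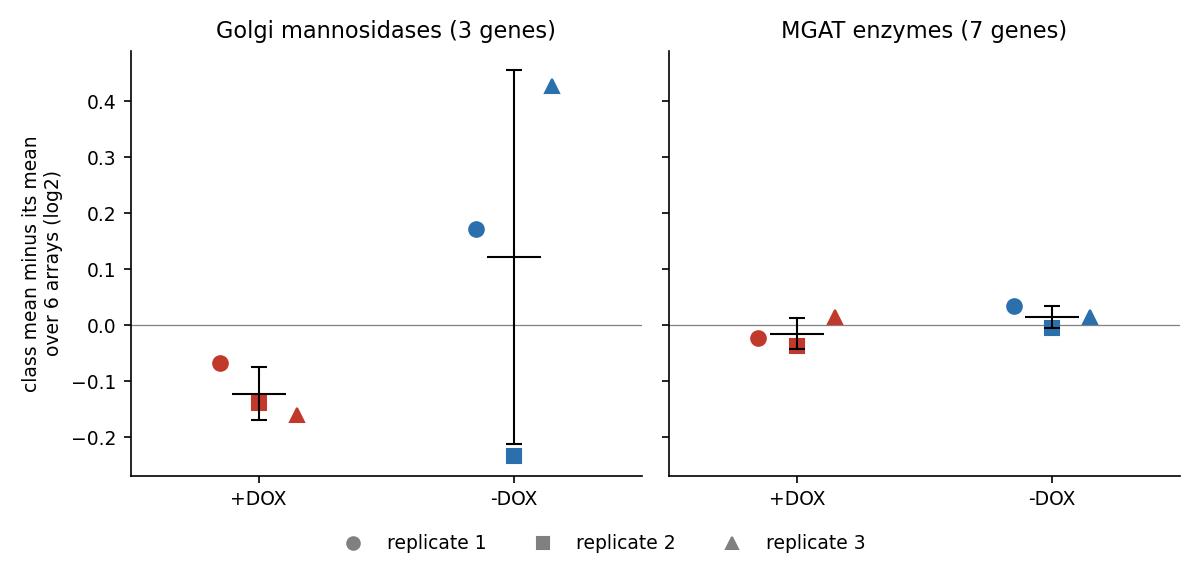
Mean of the 3 mannosidase probe sets (left panel) and of the 7 MGAT probe sets (right panel) on each array, minus that class's mean over the 6 arrays, in log2 units, with doxycycline in red and without in blue; lines are group means and bars the SD. The mannosidase means without doxycycline spread from the lowest to the highest of the 6 arrays, whereas all MGAT means stay near 0.

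Among 10 measured genes that finish N-glycan antennae or add core fucose, 5 had higher and 5 lower values with doxycycline, 0 of 10 passed (limma), and the median difference was -0.01. ST6GAL1, which caps antennae with sialic acid, read 9.17, 8.96 and 9.13 with doxycycline, against 9.49, 9.03 and 9.67 without. As for MAN1A1, replicate 2 without doxycycline lay inside the doxycycline range and replicates 1 and 3 lay above it. Its difference was -0.31 (SE 0.17; limma, adjusted p = 0.692), and -0.17 without replicate 3 of the cells lacking doxycycline. The galactosyltransferase gene B4GALT3 differed by 0.11 and 0.02 without that array, and the sialyltransferase gene ST3GAL3 by 0.07 and 0.0061. Replicate 3 without doxycycline was the highest of the 6 arrays for 4 of these 10 genes and the lowest for 5.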

How the data were processed

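The deposited table holds log2 expression values that the authors made with RMA, per the submitters' processing notes; its version and any later step are not given in the sources used here. Per the labels' protocols, Trizol-extracted total RNA was made into biotinylated cRNA. Symbols came from the RefSeq accession inside each probe set identifier, version dropped, and a RefSeq gene table (GRCh38.p14): 1043 of 1259 had 1 symbol, 190 carried no RefSeq accession and 26 an accession outside the table. Scanner files and detection calls were not used here, so signal over background is unknown; the number of arrays limits the precision.

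Groups and replicate numbers came from the sample titles. All probe sets entered 1 limma fit (limma 3.58.1, R 4.3.3; lmFit, eBayes, two-sided, threshold 0.05 after Benjamini-Hochberg adjustment) without block or filter. Exact permutation tests (scipy 1.17.1) were added for single genes. The fit was tested on simulated Gaussian data, with 200 of 1259 probe sets changed by a log2 size of 0.5 or 1. It recovered 87% and 99% of these, and 8 of 194 calls were false. The simulation gave both groups the same spread and had no array standing apart, unlike these data, so its shares do not carry over to them. Every member was to be named, and in each further list up to 3 genes with the smallest unadjusted p. The members and lists were chosen with earlier results of these data known. Replicate numbers gave no sign of pairing the arrays, which 3 arrays a group could not exclude. Alternatives were each replicate left out, a replicate block, median centring, repeated quantile normalization, array weights, a trended robust variance, a filter on dim probe sets and 1 probe set per gene.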

Additional observations from a re-analysis of the deposited data

How the results depend on the processing

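Under all alternatives tried, 0 of the 10 members passed an adjusted p of 0.05 (limma). Over the whole table the count stayed at 0 except with array weights, where 1 probe set passed, none of the members; that weighting stopped before its estimate converged and gave replicate 3 without doxycycline a weight of 0.198. The replicate block, the trended robust variance and the filter on dim probe sets leave a difference as it is. Of 90 values (10 members under the 9 alternatives that can move it), 83 kept their sign and 7 turned, in 4 members. MAN1A2 ranged from -0.31 to 0.042 when single arrays were left out, MGAT2 from -0.059 to 0.080, MGAT3 from -0.055 to 0.013 and MGAT4B from -0.026 to 0.047, and MGAT3 was at 0.00013 with array weights. The remaining 6 members kept their sign under those 9. The members' median difference ran from -0.12 with array weights to -0.05 without replicate 3 of the cells lacking doxycycline. The number of members with lower values, checked after seeing the data, was 6 of 10 with array weights and 7 of 10 otherwise. With the replicate number as a block, 0 probe sets passed and the smallest adjusted p of a member was 0.742 (limma). Deviations of same-numbered arrays correlated at -0.16 to -0.04 and 0 of 6 arrays matched their own number best. That gave no sign of pairing, but deviations from the mean of 3 arrays could not exclude it. The cause of these shifts was not tested. How many members lie near background is unknown without detection calls.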

Other observations

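The supply of UDP-GlcNAc, the donor that every MGAT enzyme uses, was covered by 6 measured genes, of which 4 had higher and 2 lower values with doxycycline and 0 passed (limma, all probe sets). NAGK, the kinase that salvages GlcNAc, read 9.92, 10.06 and 9.99 with doxycycline, against 9.59, 9.67 and 9.02 without, so its groups did not overlap, as for 15.8% of all probe sets. Its difference was 0.57 (SE 0.18; limma, adjusted p = 0.478), and 0.37 without replicate 3 of the cells lacking doxycycline. GFPT1, the first enzyme of the hexosamine pathway, read 9.43, 9.45 and 9.49 with doxycycline, against 9.82, 9.19 and 10.17 without. Replicate 2 was the lowest and replicate 3 the highest of the 6 arrays, as for MAN1A2 and MGAT4A, and the difference of -0.27 was -0.05 without replicate 3. GFPT2 differed by -0.13 and -0.01 without that array.

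Of 4 measured galectins that bind branched N-glycans, 2 had higher and 2 lower values with doxycycline, and 0 passed. LGALS3, whose product binds the extended chains on MGAT5 branches, read 12.28, 12.36 and 12.29 with doxycycline, against 11.92, 11.97 and 10.99 without. All 3 doxycycline arrays lay above, and the groups lay fully apart, in either direction, in 15.8% of all probe sets. The difference for LGALS3 was 0.68 (SE 0.27, adjusted p = 0.627 by limma) and 0.36 without replicate 3 of the cells lacking doxycycline. LGALS1 differed by 0.27 and by 0.06 without that array, and LGALS9 by -0.03. Of 15 markers of blood, vessel and stromal cells 7 were measured, 3 of them under the lower quartile of probe set means. With doxycycline 2 had higher and 5 lower values, between -0.09 for PECAM1 and 0.05 for VCAM1, and 0 passed. PECAM1 averaged 7.03 with doxycycline and 7.12 without, above that quartile. Whether these cells express PECAM1 is not known from these arrays, and lying above the quartile does not by itself show expression.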
